A study of Populus euphratica with 12 samples.

Results

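The miR159 and miR319 families were followed through the 4 leaf types of the desert poplar Populus euphratica. The members were taken by name, as every listed miRNA called ptc-miR159 or ptc-miR319 (ptc marks names given for P. trichocarpa), which gave 7 of the 257 listed miRNAs, 4 of miR159 (ptc-miR159a, ptc-miR159c, ptc-miR159d and ptc-miR159e) and 3 of miR319 (ptc-miR319a, ptc-miR319e and ptc-miR319i). Small RNA was sequenced from juvenile linear (Li) leaves of trees aged 0 to 3 years, lanceolate (La) leaves at 4 to 6 years, ovate (Ov) leaves at 8 to 12 years and broad-ovate (Bo) leaves at over 20 years, with 3 biological replicates each and 12 libraries in all. The second juvenile leaf of a bud was taken, from trees of 1 site and with no treatment named, and leaf type and tree age changed together and cannot be told apart. The tables hold miRNAs only, so the leaf tissue was not checked against marker genes.

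Both families are old in land plants and are related in sequence. In Arabidopsis, miR159 cleaves the mRNAs of GAMYB-like MYB transcription factors, which act in gibberellin responses and anther development and curl and stunt the leaves when they escape miR159. In Arabidopsis, miR319 cleaves the mRNAs of CINCINNATA-type TCP transcription factors, which end cell division in the growing leaf blade and so set its size, flatness and margin. The targets of either family were not measured in these libraries.

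The members lay at very different levels, in RPM (reads of 1 miRNA per 1000000 reads on all listed miRNAs of the library, with no correction for length, mature miRNAs being of nearly equal length). ptc-miR159a averaged 362233 RPM over the 12 libraries and ranked first in every one. ptc-miR319a averaged 37125 RPM, with a rank between 3 and 10, and ptc-miR319e averaged 21316 RPM, with a rank between 5 and 15. For comparison, the 5 most abundant miRNAs outside both families were ptc-miR166a (125376 RPM), ptc-miR166n (95741 RPM), ptc-miR472b (38431 RPM), ptc-miR6445a (29570 RPM) and ptc-miR162a (27208 RPM). ptc-miR159d (672 RPM) and ptc-miR319i (139 RPM) were the minor members with reads in all 12 libraries. The remaining members were at the edge of detection. ptc-miR159c had 2 reads, both in Bo3, and ptc-miR159e had 1 read, in Li1. In a library, a count of 0 allows a level of up to 3 reads, between 4.75 RPM (Ov1) and 15.0 RPM (Bo1), so a difference in these members was not detectable at this depth. They were 2 of the 36 listed miRNAs with at most 3 reads in all libraries together, and they fell below the mean of 1 RPM needed for testing. The other 5 members were among the 216 miRNAs tested. Members of a family that share a mature sequence cannot be told apart, and no source states where a read that fits several members was counted, which leaves the division within each family uncertain.

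The library total was set to a large part by the members themselves. ptc-miR159a took between 30.8% (Bo3, 95% Wilson interval 30.7% to 31.0%) and 40.0% (La2, 39.8% to 40.2%) of the reads, and both families together took between 35.5% (Bo3) and 46.7% (La1). The intervals cover counting error only. Depth ran from 199583 reads (Bo1) to 632114 reads (Ov1). None of the 66 pairs of libraries agreed within counting noise.

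**Figure D1:**
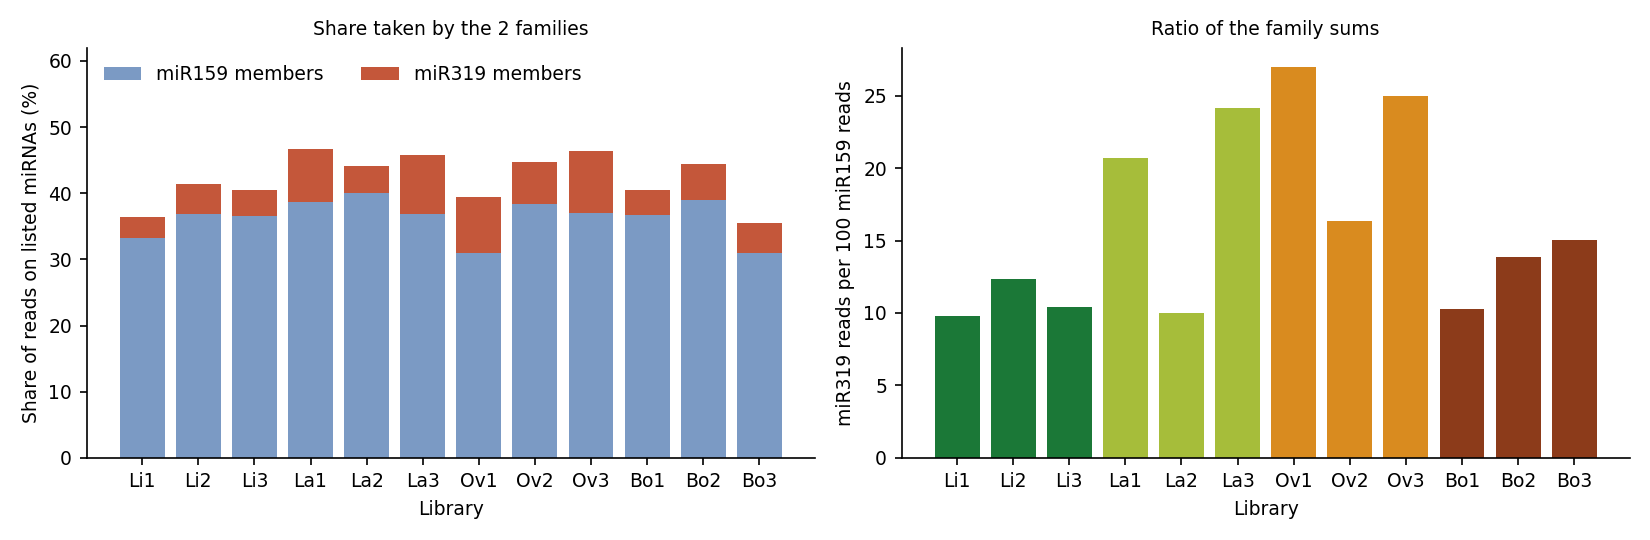
Left, the share of reads on listed miRNAs (%) taken by the miR159 members (blue) and the miR319 members (red) in each of the 12 libraries; right, the miR319 reads per 100 miR159 reads in the same libraries, coloured by leaf type. The miR159 part is of similar height throughout, and the ratio is highest in Ov1 (27.0), Ov3 (25.0) and La3 (24.2) and lowest in Li1 (9.82).

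The dominant member, ptc-miR159a, had nearly the same level in the 4 leaf types. It stood at 331472, 367760 and 365510 RPM (Li), 385894, 400180 and 368465 RPM (La), 309481, 383564 and 369996 RPM (Ov) and 366494, 389746 and 308234 RPM (Bo), in the order of the replicate numbers. The lowest libraries were Bo3 and Ov1, and their groups were the widest, at 354825 ± 41990 RPM in Bo and 354347 ± 39443 RPM in Ov (SD, n = 3 each). La was the highest group, at 384847 ± 15883 RPM (SD, n = 3), against 354914 ± 20333 RPM (SD, n = 3) in Li, and the lowest La value was just above the highest Li value. La stood above Li without overlap for 11.6% of the 216 tested miRNAs, and ptc-miR159a was the 1 member among them. The fitted log2 difference of La from Li was 0.12 (standard error 0.17, 95% interval -0.24 to 0.47), which did not pass the threshold (adjusted p = 0.77 in limma, and 0.65 to 0.96 over the alternatives). Between Bo and Li leaves the log2 difference was -0.01 (95% interval -0.36 to 0.35) and its sign depended on which library was left out. When each library was scaled by the median ratio over miRNAs (RLE) in place of its total, this Bo/Li difference was -0.27. That scaling lowered the median difference of all tested miRNAs by 0.21 for Bo/Li, by 0.13 for Bo/La and by 0.17 for Bo/Ov.

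Over the 12 libraries, ptc-miR159a was the least variable of all 216 tested miRNAs, with a standard deviation of 0.12 on the log2 scale, against a median of 1.04 for all tested miRNAs and of 0.61 for the 49 that averaged 1000 RPM or more. Its highest library was 1.30 times its lowest. On the RPM scale its own reads are part of the divisor. With the reads of all other miRNAs as the divisor, the standard deviation of ptc-miR159a was 0.19 and it ranked 3 of 216, and with RLE scaling the standard deviation was 0.16 and it again ranked first. The minor member ptc-miR159d was also among the least variable miRNAs, with a standard deviation of 0.22 and rank 4. The miR319 members varied more, with standard deviations of 0.60 for ptc-miR319a (rank 39), 0.46 for ptc-miR319e (rank 17) and 0.67 for ptc-miR319i (rank 57).

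The differences of ptc-miR159d between leaf types also lay within its spread. Its libraries held 658, 687 and 786 RPM (Li), 742, 519 and 691 RPM (La), 872, 699 and 525 RPM (Ov) and 601, 594 and 694 RPM (Bo), from 120 to 551 reads. The means were 710.5 ± 66.7 RPM (Li), 650.5 ± 117 RPM (La), 698 ± 173 RPM (Ov) and 630 ± 55.7 RPM (Bo) (SD, n = 3 each). Each group overlapped with every other one. Its 6 fitted log2 differences lay between -0.17 (Bo/Li) and 0.09 (Ov/La), and none passed the threshold (adjusted p from 0.82 to 0.98 in limma), with several changing sign when 1 library was left out. The 95% interval that reached furthest from 0 was that of Bo/Li, at -0.90 to 0.56.

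All 3 miR319 members had their highest mean in Ov and their lowest mean in Li leaves. The libraries had 20256, 26432 and 23072 RPM of ptc-miR319a (Li), 46968, 24312 and 59724 RPM (La), 54843, 39037 and 66207 RPM (Ov) and 23775, 34124 and 26748 RPM (Bo). Every Ov library was above every Li and every Bo library, whereas La2 lay within the range of Li and La1 and La3 lay within the range of Ov. Li leaves averaged 23253 ± 3092 RPM, La leaves 43668 ± 17935 RPM, Ov leaves 53362 ± 13645 RPM and Bo leaves 28216 ± 5329 RPM (SD, n = 3 each). In bulk leaves, more cells with this miRNA and more of it per cell cannot be told apart.

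ptc-miR319e had the same shape with a smaller range. It was at 12318 (Li1), 18898 (Li2) and 14922 RPM (Li3) in Li leaves and at 32869, 15760 and 29292 RPM in La leaves. In Ov leaves it was at 28606, 23721 and 26160 RPM and in Bo leaves at 13754, 19917 and 19576 RPM. All Ov libraries again stood above all Li and Bo libraries, and La2 again lay among the Li values. Li leaves averaged 15379 ± 3314 RPM, La leaves 25974 ± 9024 RPM, Ov leaves 26162 ± 2442 RPM and Bo leaves 17749 ± 3464 RPM (SD, n = 3 each). The minor member ptc-miR319i, with 17 to 140 reads per library, reached 57.4, 100.5 and 84.3 RPM (Li), 172, 82.1 and 184 RPM (La), 221, 108 and 276 RPM (Ov) and 110.2, 177 and 100.5 RPM (Bo). Its Ov libraries were all above its Li libraries, but Ov2 was below Bo1 and Bo2. Its mean was 80.8 ± 21.8 RPM (Li), 146 ± 55.8 RPM (La), 202 ± 86.1 RPM (Ov) and 129 ± 41.6 RPM (Bo) (SD, n = 3 each).

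**Figure D2:**
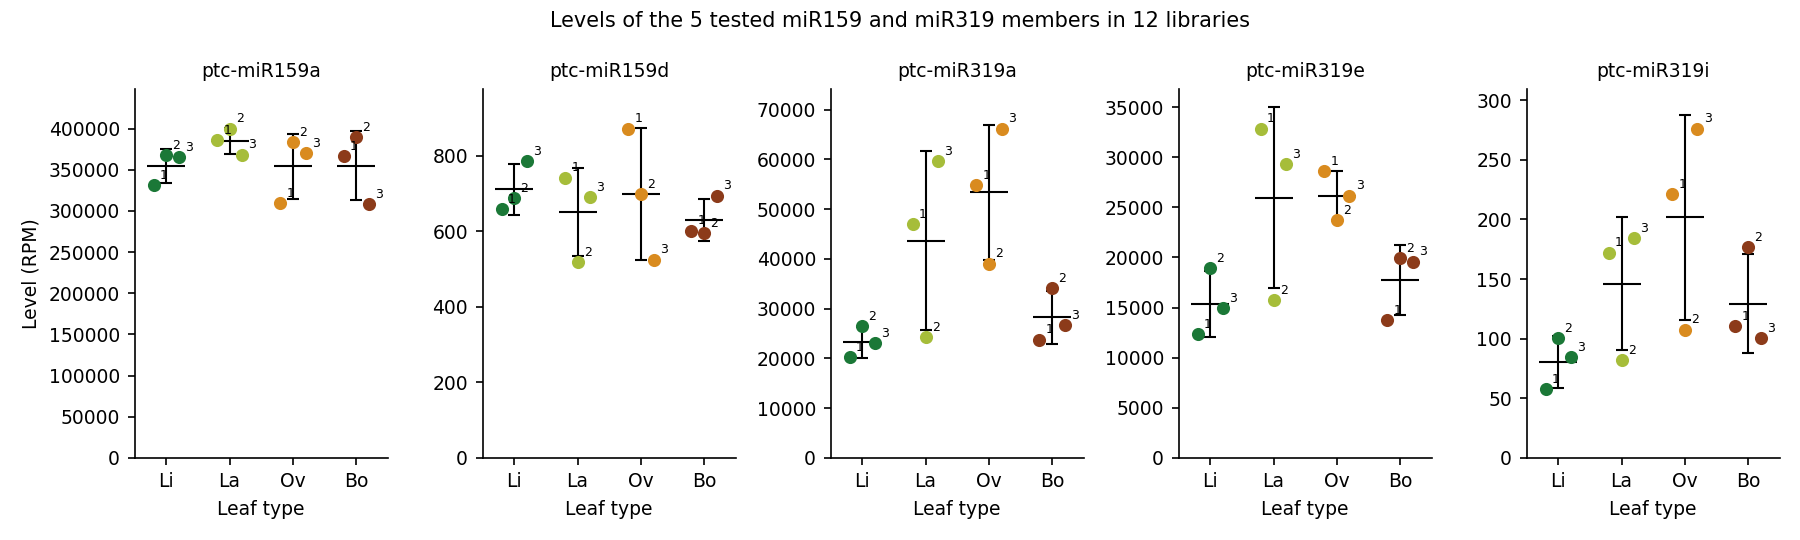
Level in RPM (each vertical axis from 0) of the 5 tested members in Li, La, Ov and Bo leaves; points are libraries with their replicate number, horizontal bars the means and vertical bars ± SD (n = 3). The groups of ptc-miR159a and ptc-miR159d have similar means, while the miR319 members have their highest mean in Ov, where ptc-miR319a averaged 53362 RPM against 23253 RPM in Li, and La2 is low for each of them.

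The 6 pairs of leaf types were compared with limma on log2(RPM + 1), and p-values were adjusted over the 216 tested miRNAs of a pair. Of the 5 tested members, 0 passed the adjusted threshold of 0.05 in any pair, where the share of all tested miRNAs that passed was 12.5% in Bo/Li, 4.17% in Ov/Li, 3.7% in Bo/La, 2.78% in Bo/Ov, 1.85% in La/Li and 0.0% in Ov/La. At an unadjusted P of 0.05 in limma, 2 members passed for La/Li (14.8% of all tested miRNAs), 3 for Ov/Li (23.1%), 1 for Bo/Ov (14.4%) and 0 for Bo/Li (22.2%), Ov/La (1.85%) and Bo/La (13.0%). The La/Li count was 0 with RLE scaling, without the variance trend, with the 6 libraries of the pair alone and without Li1, La1 or La3. The Ov/Li count was 1 without Li1 or Ov1, and the Bo/Ov count was 0 without the variance trend, Ov3 or Bo1. The 3 members for Ov/Li were the miR319 members, all higher in Ov, and 13.4% of all tested miRNAs passed in that direction. These 3 members varied together over the 12 libraries (Pearson's r from 0.82 to 0.92) and may share reads, so they are not 3 independent results. The closest to the adjusted threshold was ptc-miR319a for Ov/Li. Its mean was 2.29 times as high in Ov as in Li leaves, with a log2 difference of 1.17 (standard error 0.32, 95% interval 0.48 to 1.87, adjusted p = 0.059 in limma). Over the alternatives this adjusted p lay between 0.030 and 0.20 and the difference between 1.0 and 1.38. Among the filters and left-out libraries, it was below 0.05 when testing was limited to miRNAs averaging 10 RPM or more (adjusted p = 0.043), and also without La2 (adjusted p = 0.030) or without La3 (adjusted p = 0.042), which are not libraries of this pair but share its estimate of the spread. For the same pair the log2 difference was 0.78 for ptc-miR319e (standard error 0.30, 95% interval 0.14 to 1.43, adjusted p = 0.14 in limma) and 1.24 for ptc-miR319i (standard error 0.53, 95% interval 0.10 to 2.39, adjusted p = 0.17 in limma). In each of them the 3 Ov libraries were above the 3 Li libraries, which held for 14.4% of all tested miRNAs. The median log2 difference for Ov/Li was 1.17 for the 3 miR319 members, beside a median of 0.00 for all tested miRNAs. The miR159 members had -0.01 (ptc-miR159a) and -0.05 (ptc-miR159d), so the median of 0.78 over the 5 tested members reflects miR319 alone.

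For La/Li the differences of the miR319 members had larger adjusted p and moved with single libraries. ptc-miR319a averaged 43668 RPM in La and 23253 RPM in Li leaves, a log2 difference of 0.82 (95% interval 0.13 to 1.51, adjusted p = 0.26 in limma). Without La2 this difference was 1.20 (adjusted p = 0.057), and without La3 it was 0.55 (adjusted p = 0.63). For ptc-miR319e the log2 difference was 0.71 (95% interval 0.06 to 1.35, adjusted p = 0.29 in limma), with 1.03 without La2 (adjusted p = 0.086) and 0.50 without La1 (adjusted p = 0.52). ptc-miR319i had a log2 difference of 0.80 (95% interval -0.35 to 1.94, adjusted p = 0.55 in limma), with 1.17 without La2 (adjusted p = 0.37) and 0.57 without Li1 (adjusted p = 0.75). At an unadjusted P of 0.05, 8.33% of all tested miRNAs were higher in La than in Li.

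Between Bo and Ov leaves the direction was the opposite one. ptc-miR319a averaged 28216 RPM in Bo and 53362 RPM in Ov leaves, a log2 difference of -0.90 (standard error 0.32, 95% interval -1.59 to -0.21, adjusted p = 0.22 in limma), and 6.02% of all tested miRNAs were lower in Bo at an unadjusted P of 0.05. The log2 difference was -0.58 for ptc-miR319e (95% interval -1.22 to 0.07, adjusted p = 0.37) and -0.58 for ptc-miR319i (95% interval -1.72 to 0.57, adjusted p = 0.64), also in limma. No overlap was found for ptc-miR319a and ptc-miR319e, both lower in every Bo library. Over all tested miRNAs, 8.33% were lower in every Bo library. Between Bo and La leaves the ptc-miR319a difference was -0.55 (95% interval -1.24 to 0.14, adjusted p = 0.44 in limma), with -0.93 without La2 (adjusted p = 0.14) and -0.28 without La3 (adjusted p = 0.78). Between the ends of the series no member passed the unadjusted threshold. The Bo/Li log2 difference was 0.27 for ptc-miR319a (95% interval -0.42 to 0.96), 0.21 for ptc-miR319e (-0.44 to 0.85) and 0.66 for ptc-miR319i (-0.48 to 1.81), with adjusted p between 0.49 and 0.75 in limma. With RLE scaling the ptc-miR319e value was -0.05 and that of ptc-miR319a 0.01, so no direction can be given for these members.

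**Figure D3:**
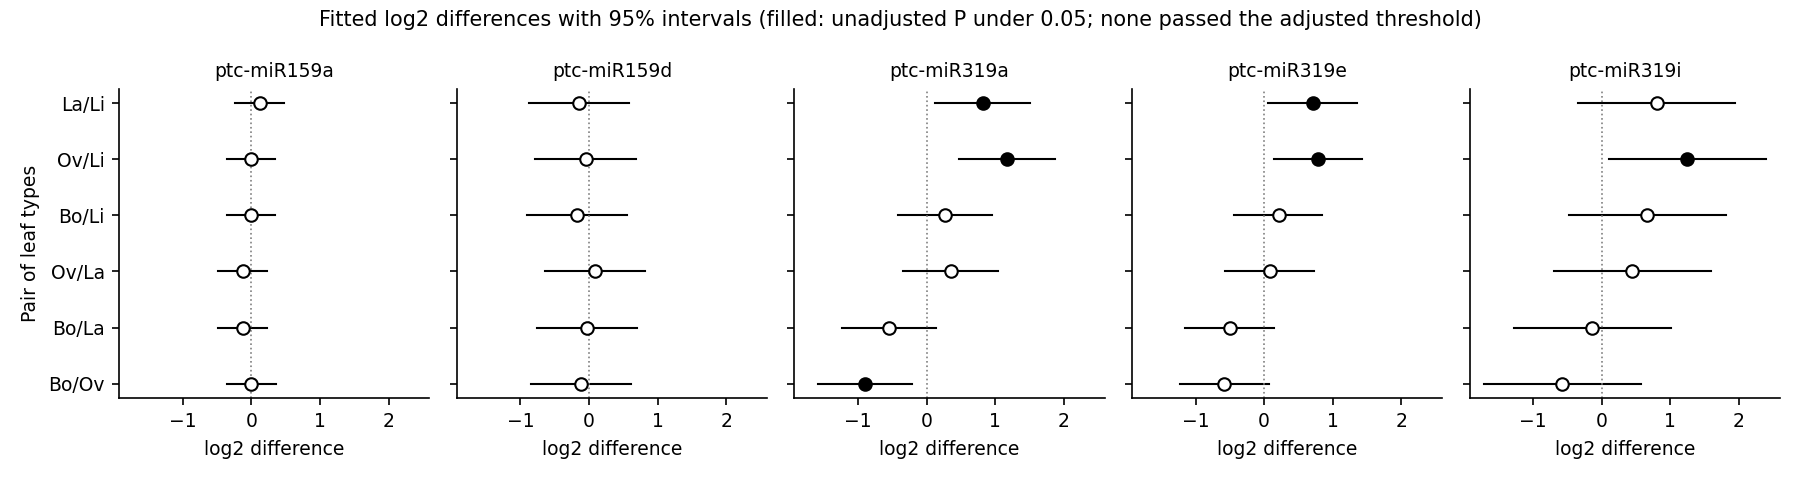
Fitted log2 differences (points) of the 5 tested members for the 6 pairs of leaf types, with 95% intervals (lines); the dotted line marks no difference and filled points passed an unadjusted P of 0.05. The filled points are ptc-miR319a for La/Li (0.82), Ov/Li (1.17) and Bo/Ov (-0.90), ptc-miR319e for La/Li (0.71) and Ov/Li (0.78), and ptc-miR319i for Ov/Li (1.24).

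Between Ov and La leaves the order of the miR319 members was within the spread of replicates. The log2 difference was 0.35 for ptc-miR319a, 0.08 for ptc-miR319e and 0.44 for ptc-miR319i (adjusted p from 0.95 to 0.98 in limma), and limma called 0 of the 216 miRNAs for this pair, with 4 at an unadjusted P of 0.05. La and Ov libraries of the same number deviated together over the tested miRNAs, and the number 2 libraries were the lowest of their group for all 3 miR319 members. Within the 3 same-numbered pairs, Ov was above La in 3 of 3 for ptc-miR319a and ptc-miR319i and in 1 of 3 for ptc-miR319e. Without La2 the ptc-miR319a difference was -0.02 and that of ptc-miR319e was -0.25.

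Of the 5 tested members, 0 had group means in strict order from Li to Bo, and 0 passed the adjusted threshold for a slope over the leaf types in limma, where 10.6% of all tested miRNAs passed. At an unadjusted P of 0.05 the slope passed for 0 members and for 21.8% of all tested miRNAs. The leaf index, the ratio of leaf length to width, falls from Li to Bo. By the rule of strict order, none of the 5 tested members followed or opposed it. The share of all tested miRNAs with means in strict order was not counted, so the 0 of 5 has no background beside it. The order of the miR319 means was Ov, La, Bo and Li. Of the neighbours in this order, none differed past the adjusted threshold.

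Summed over each family, the group means lay closer together for miR159 than for miR319. The miR159 members summed to 355626 ± 20373 RPM (Li), 385497 ± 15802 RPM (La), 355045 ± 39310 RPM (Ov) and 355457 ± 41932 RPM (Bo), as mean ± SD of 3 libraries. The miR319 members summed to 38713 ± 6424 RPM (Li), 69788 ± 26071 RPM (La), 79726 ± 15275 RPM (Ov) and 46094 ± 8295 RPM (Bo), so that the Ov mean was 2.06 times the Li mean and the Bo mean 0.578 times the Ov mean. The ratio of the sums does not depend on how a library is scaled. Per 100 miR159 reads, the libraries held 9.82, 12.3 and 10.4 miR319 reads (Li), 20.7, 10.02 and 24.2 (La), 27.0, 16.4 and 25.0 (Ov) and 10.3, 13.9 and 15.0 (Bo). The mean ratio was 10.9 ± 1.31 for Li leaves, 18.3 ± 7.37 for La, 22.8 ± 5.64 for Ov and 13.1 ± 2.49 for Bo (SD, n = 3 each). The 3 Ov libraries were above the 3 Li and the 3 Bo libraries, and La2 lay between Li1 and Li3. These sums are given as a description, without a test.

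The miR319 members varied together across libraries. Over the 12 libraries on the log2 scale, Pearson's r was 0.92 between ptc-miR319a and ptc-miR319e, 0.92 between ptc-miR319a and ptc-miR319i and 0.82 between ptc-miR319e and ptc-miR319i, which share the library and may share reads. Between ptc-miR159a and the miR319 members it was 0.04 to 0.06, and between ptc-miR159a and ptc-miR159d it was -0.51. On the RPM scale a higher ptc-miR159a lowers the other levels by construction, which pulls its correlations down. These correlations were not computed with ptc-miR159a left out of the total.

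Depth and the summed miR319 level were set side by side in each library, after the values were seen. In 4 of 4 leaf types the library with the fewest reads (Li1, La2, Ov2 and Bo1) had the lowest miR319 sum, and in 1 of 4 the library with the most reads (Li2) had the highest. The same count was not made over all tested miRNAs, so it is not known whether this is particular to miR319. In La leaves the deepest library was La1, with 435399 reads and 80009 RPM, against 412500 reads and 89200 RPM in La3. In Ov leaves it was Ov1, with 632114 reads and 83670 RPM, against 358301 reads and 92643 RPM in Ov3. In Bo leaves it was Bo3, with 318495 reads and 46425 RPM, against 316519 reads and 54218 RPM in Bo2. The part of depth in the differences between leaf types was not tested.

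**Figure D4:**
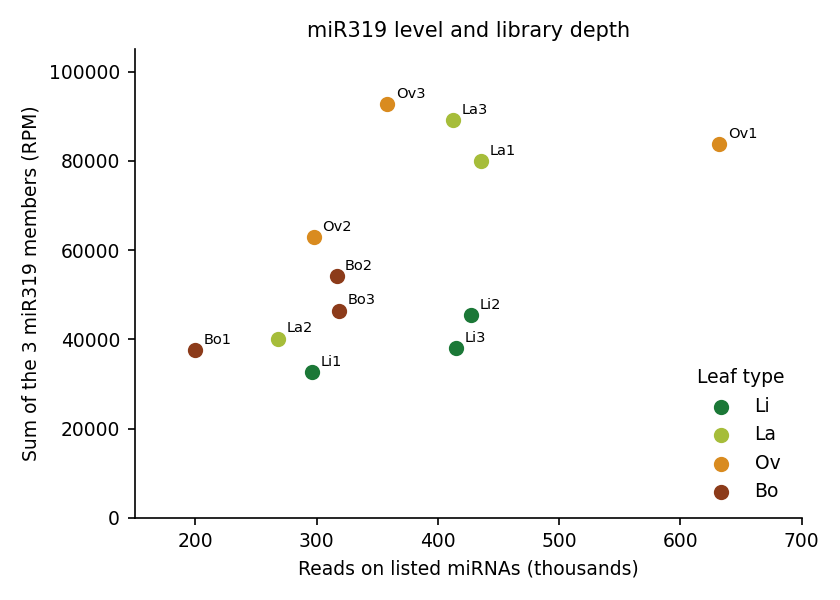
Summed miR319 level (RPM) against the reads on listed miRNAs (in units of 1000) in the 12 libraries, coloured by leaf type. Within each leaf type the library furthest to the left (Li1, La2, Ov2 and Bo1) is also the lowest, and the library furthest to the right is also the highest in Li alone (Li2).

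The miRNAs with the pattern most like that of either family were sought among the other miRNAs that averaged 10 RPM or more. For the summed miR319 level they were ptc-miR475a-3p (r = 0.78), ptc-miR482b-3p (r = 0.74), ptc-miR396g-3p (r = 0.73), ptc-miR472b (r = 0.71) and ptc-miR6438a (r = 0.69), over 12 libraries. The first 4 of these also had their highest mean in Ov leaves, which their choice by correlation with this sum favours. ptc-miR475a-3p, for example, averaged 2110 RPM (Li), 3450 RPM (La), 4750 RPM (Ov) and 3020 RPM (Bo). For ptc-miR159a the highest were 2 predicted miRNAs of low level (r = 0.81 and r = 0.76), a further predicted miRNA (r = 0.72), ptc-miR164a (r = 0.68) and a predicted star sequence (r = 0.66). These correlations are descriptions of the same 12 libraries.

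Other miRNAs of the same circuits were also examined. miR828 and miR858 target other MYB genes, and in Arabidopsis TCP factors activate genes of miR164, which targets NAC genes of leaf margins and organ boundaries, and of miR396, which targets growth-regulating factors. The tables list 9 of these miRNAs, 2 of miR164, 6 of miR396, 1 of miR828 and 0 of miR858, and the 9 were tested. Of these, 0 passed the adjusted threshold in any pair, where between 0.0% (Ov/La) and 12.5% (Bo/Li) of all tested miRNAs passed. At an unadjusted P of 0.05 limma found 1 lower in La/Li (6.48% of all tested miRNAs), 1 higher in Ov/Li (13.4%), 1 higher in Bo/Li (12.5%), 1 higher in Bo/La (6.02%) and, in Bo/Ov, 1 higher (8.33%) and 1 lower (6.02%). Their median log2 difference for Ov/Li was -0.30, beside 0.00 for all tested miRNAs. The member nearest to the threshold for Ov/Li was ptc-miR396g-3p, at 274 ± 142 RPM in Ov and 67.9 ± 26.4 RPM in Li leaves (SD, n = 3 each), a log2 difference of 1.95 (95% interval 0.70 to 3.2, adjusted p = 0.070 in limma). For Bo/Li it was ptc-miR396f, at 2090 ± 1150 RPM in Bo and 474 ± 567 RPM in Li leaves (SD, n = 3 each), with a log2 difference of 2.65 (95% interval 0.71 to 4.59, adjusted p = 0.074 in limma) and overlapping libraries. The miR396 entries did not move together for Ov/Li. The other arm of the same name, ptc-miR396g-5p, had a log2 difference of -0.68, with -0.66 for ptc-miR396a and -0.90 for ptc-miR396c. The difference was 0.33 for ptc-miR396e-3p and 0.63 for ptc-miR396f. Whether the 3p entries target growth-regulating factors was not tested.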

How the data were processed

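Small RNA libraries of Li, La, Ov and Bo leaves (12 in all) were used as deposited. The authors aligned reads to miRBase v.21 with 0 mismatches, predicted further miRNAs with miRDeep2 and deposited values named TPM for 257 miRNAs per sample. All values of every library were whole multiples of what 1 read was worth, within 0.001, so the deposited unit was RPM (reads per 1000000 reads on listed miRNAs) without a length term. Reads recovered this way gave depth, floors and intervals. The authors name DESeq for differential expression, but no count model was fitted to the RPM values. The replicates are called biological, and whether they came from separate trees was not stated, so p-values measure the spread between these samples.

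Values were tested with limma 3.58.1 (R 4.3.3) on log2(RPM + 1), with a variance trend, for the 216 miRNAs that averaged 1 RPM or more, with 4 group means and all 12 libraries in 1 fit, 2-sided, with Benjamini-Hochberg adjustment; a fold change on this scale is understated at a few reads. Python 3.11.15, numpy 2.4.6, pandas 2.3.3, scipy 1.17.1 and matplotlib 3.10.9 were used for the rest. The test was run on simulated data built on the Bo/Li comparison (20 sets, 216 miRNAs, 40 changed): 12.6% of changes of 1 and 81.5% of changes of 2 on the log2 scale were called after adjustment. The changed miRNAs were drawn from a middle range of levels, with the same variance setting for every miRNA. ptc-miR159a, ptc-miR319a and ptc-miR319e lay above that range, so these shares do not apply to them. The variance setting was fixed and not estimated from these libraries. The shares therefore need not hold for ptc-miR159d and ptc-miR319i, whose Bo/Li standard errors were 0.34 and 0.53. Chi-square per degree of freedom was at least 30.2 over the 66 pairs of libraries. Deviations of same-numbered libraries from their group means correlated at 0.25, 0.52 and 0.50 for La and Ov; this pairing was read from the values, and in the other 5 pairs of leaf types none was over 0.1.

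All 7 members are described; the other named miRNAs were the 5 most abundant, the 5 most correlated with each family and the miR164, miR396 and miR828 families (miR858 was sought, with 0 listed). Members and lists were chosen with earlier results of these data known. Alternatives were other pseudocounts (0.1 and 10), filters, scalings, variance models, thresholds, a replicate block, only the 6 libraries of a pair and each library left out in turn.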

Additional observations from a re-analysis of the deposited data

How the results depend on the processing

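The 30 member differences were recomputed under 23 alternatives each, and of the 690 values 655 kept direction and side of the adjusted threshold, 10 newly passed (6 at the unadjusted P and 4 of ptc-miR319a for Ov/Li) and 25 changed sign; no difference above 0.35 in size changed sign. Counts of members past the threshold, 0 in each pair, became 1 for Ov/Li with the filter at a mean of 10 RPM, 1 with the replicate block, and 0 to 1 with 1 library left out; at an unadjusted P they were 2 for La/Li, 3 for Ov/Li and 1 for Bo/Ov, and over the other alternatives 0 to 2, 1 to 3 and 0 to 2 in these pairs, and 2 for Bo/La without La2. The block gave adjusted p = 0.038 in limma for ptc-miR319a in Ov/Li, where the libraries share only a number. It changed no other call of a member. For Ov/La the same-numbered libraries deviated together, but this pairing was read from the values and no label states it. There the block with only the 6 libraries, chosen after seeing the data, gave adjusted p = 0.50 in limma for ptc-miR319a. With RLE scaling the ptc-miR159a difference for Bo/Ov was -0.20 and that of ptc-miR319e for Bo/Li -0.05. With 1 library left out, ptc-miR159a ranged from -0.07 to 0.09 (Ov/Li), -0.08 to 0.09 (Bo/Li) and -0.09 to 0.10 (Bo/Ov). ptc-miR159d ranged from -0.24 to 0.02 (La/Li), -0.23 to 0.14 (Ov/Li), -0.09 to 0.28 (Ov/La), -0.19 to 0.07 (Bo/La) and -0.31 to 0.05 (Bo/Ov). Likewise ptc-miR319a ranged from -0.02 to 0.63 (Ov/La), ptc-miR319e from -0.25 to 0.28 (Ov/La) and ptc-miR319i from -0.51 to 0.07 (Bo/La). The cause was not tested. With ptc-miR159a left out of the total, which makes every level higher by construction, the miR319 sum averaged 60227 (Li), 112825 (La), 123401 (Ov) and 71789 RPM (Bo). Other scalings of the share of ptc-miR159a were not run, since a share has no scaling. Over all tested miRNAs, limma called 4 for La/Li (0 to 8 over the alternatives), 9 for Ov/Li (2 to 21, the highest with the replicate block), 27 for Bo/Li (6 to 32), 8 for Bo/La (5 to 10), 6 for Bo/Ov (0 to 8) and 0 for Ov/La under each alternative. The lowest tested member, ptc-miR319i, rested on 17 to 140 reads a library.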

Other observations

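Within miR319, the balance of the members differed between libraries of the same leaf type and between leaf types. ptc-miR319a made up 66.4 ± 4.74% of the summed level in Ov, 62.1 ± 4.33% in La, 61.2 ± 3.14% in Bo and 60.3 ± 1.97% in Li (SD, n = 3 each), with the highest share in Ov3 (71.5%) and the lowest in Bo3 (57.6%). The lowest Ov share (62.10%) was just above the highest Li share (62.08%), and the La and Bo shares overlapped with those of Ov. The ratio of ptc-miR319a to ptc-miR319e was 2.53 in Ov3, 2.04 in La3 and 1.92 in Ov1 and between 1.37 and 1.73 in the other 9 libraries. The share of ptc-miR319i stayed small, between 0.171% (Ov2) and 0.326% (Bo2). Within miR159, ptc-miR159d was never more than 0.281% (Ov1) of the summed level.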
